A study of Mus musculus with 6 samples.

Results

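The interleukin-1 (IL-1) family and inflammasome genes Il1a, Il1b, Il18, Il1rn, Il1r2, Nlrp3, Pycard, Casp1, Casp4 and Gsdmd were examined in MLL-AF9 cells of vehicle- and DS-5272-treated mice. These 10 genes were chosen by name for their role in this system, with earlier results of these data known, out of 26082 gene symbols in the expression table, and each of them stood on a single line. MLL-AF9 cells are a model of acute myeloid leukemia made by retroviral transfer of the MLL-AF9 fusion oncogene into c-Kit+ bone marrow progenitors of C57BL/6J mice. All 6 samples carried MLL-AF9 and came from the bone marrow of leukemic mice. In 3 samples the mice had received vehicle by mouth, and in 3 samples they had received DS-5272, an inhibitor of the p53-MDM2 interaction, at 80 mg/kg, in each case 24 h before the cells were taken. Recipients were not irradiated and so keep blood cells of their own, the sort gate used for RNA is not stated, and neither is the number of leukemic clones behind the samples. The labels name separate samples but not separate mice, so the p-values measure the spread between these samples.

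IL-1α and IL-1β are ligands of the same signaling receptor, which recruits MyD88 and IRAK kinases and leads to NF-κB activation. Their action is limited by a receptor antagonist, the product of Il1rn, and by a decoy receptor, the product of Il1r2. IL-1β and IL-18 are made as inactive precursors. An inflammasome, in which the sensor NLRP3 binds the adaptor ASC (the product of Pycard) and pro-caspase-1, activates caspase-1, which cleaves both precursors and also gasdermin D, whose fragment forms pores in the cell membrane. Mouse caspase-4, also known as caspase-11, senses bacterial lipopolysaccharide in the cytosol and cleaves gasdermin D as well. Monocytes, macrophages and neutrophils are the main blood cells known for this system, and transcript level alone does not tell whether a precursor has been processed.

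Several of these genes are neighbors in the genome. In the GENCODE annotation of GRCm38, the build of the deposited values, Il1a (chr2:129299610-129309972, minus strand) and Il1b (chr2:129364570-129371139, minus strand) lie 54597 bp apart, and Il1rn lies on the same chromosome (chr2:24336853-24351494, plus strand). Casp1 (chr9:5298517-5307265) ends 1562 bp before Casp4 starts (chr9:5308828-5336783), with both on the plus strand, and Il18 is farther along that chromosome (chr9:50554827-50581840, plus strand). The other members are Il1r2 (chr1:40074079-40125231, plus strand), Pycard (chr7:127989708-127993867, minus strand), Nlrp3 (chr11:59541568-59566956, plus strand) and Gsdmd (chr15:75862327-75867408, plus strand). Exons of Il1a, Il1b and Pycard overlap an exon of another gene on the opposite strand (Gm14023, Il1bos and Gm45205). The libraries kept strand, but the counting is not stated to have used it, so fragments of those transcripts may be included in the values of these 3 genes. The other 7 members share no exon with another gene.

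Promoter sequences are given for both pairs of neighbors, to show the start regions of genes that lie close together in the genome. They are the 250 bases before the transcription start in RefSeq (GRCm38.p6), 5′ to 3′ on the strand of the gene. Capitals mark matches to an AP-1 motif in Il1a and to κB motifs in Casp4, and no motif searched for was found in the Il1b and Casp1 windows.
Il1a promoter, chr2:129309973-129310222, minus strand: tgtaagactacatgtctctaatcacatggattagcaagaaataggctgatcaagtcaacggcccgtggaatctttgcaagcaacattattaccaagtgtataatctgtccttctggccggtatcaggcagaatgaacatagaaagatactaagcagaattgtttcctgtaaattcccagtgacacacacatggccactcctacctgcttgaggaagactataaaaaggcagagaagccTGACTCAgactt
Il1b promoter, chr2:129371140-129371389, minus strand: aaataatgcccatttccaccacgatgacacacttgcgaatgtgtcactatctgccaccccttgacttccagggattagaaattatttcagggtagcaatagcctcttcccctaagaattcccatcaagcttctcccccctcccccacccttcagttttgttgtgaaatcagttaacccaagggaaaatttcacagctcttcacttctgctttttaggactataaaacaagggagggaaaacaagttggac
Casp1 promoter, chr9:5298267-5298516, plus strand: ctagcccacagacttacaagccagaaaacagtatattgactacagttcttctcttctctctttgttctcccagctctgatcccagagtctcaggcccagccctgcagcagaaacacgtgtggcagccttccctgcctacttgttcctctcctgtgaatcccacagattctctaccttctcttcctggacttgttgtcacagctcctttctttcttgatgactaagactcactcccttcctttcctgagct
Casp4 promoter, chr9:5308599-5308848, plus strand: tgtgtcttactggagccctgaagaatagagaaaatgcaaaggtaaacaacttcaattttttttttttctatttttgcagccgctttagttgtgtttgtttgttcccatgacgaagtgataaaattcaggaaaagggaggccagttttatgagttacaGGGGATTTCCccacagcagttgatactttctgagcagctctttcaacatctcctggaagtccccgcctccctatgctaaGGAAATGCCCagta

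Of the 10 genes, 9 were matched to RefSeq promoters, with 13 windows among them. Motifs were searched on both strands as exact letters, with N for any base. The κB motif (GGG, then any 2 bases, then TTTCC) was present in the printed Casp4 window, at −93 to −84 and −14 to −5 from the start. In another Casp4 window, with a later start, the same sites lay at −104 to −95 and −25 to −16. The printed window ends at 5308848, past the GENCODE start of Casp4 (5308828), so its site nearest the start lies inside the GENCODE gene. The κB motif was also present in 1 window of Il1rn, at −51 to −42. This motif was present in 1.41% of the 32851 RefSeq windows of the same length. The AP-1 motif TGANTCA was present in Il1a, at −12 to −6, and in another window of Il1rn, at −141 to −135, against 6.75% of all windows. The C/EBP motif TTGCNNAA was present in Pycard only, against 9.56% of all windows. The interferon-response motif (GAAA, any 2 bases, GAAA, in 2.98% of all windows) and the p53 response element (0.0639%) had no match in any member window, which says only that these letters are not in these bases.

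Gene expression is given as FPKM, the fragments per length of transcript and per library size that the authors computed, so that levels of different genes can be compared per length. For the 11130 genes whose mean over the 6 samples reached 1 FPKM, limma was fitted to log2(FPKM + 1). A log2 fold change is the difference of group means on this scale and is smaller than the true change where FPKM is low. A gene was called at a Benjamini-Hochberg adjusted p under 0.05 over all tested genes. Depth, estimated from the steps between low FPKM values, was 34700000 to 43000000 fragments for vehicle and 23200000 to 32100000 for DS-5272 samples. The 2 p53 targets used to check the treatment were higher in every DS-5272 sample than in every vehicle sample, at 14.8, 28.1 and 25.5 against 32.3, 117 and 485 FPKM for Cdkn1a and 27.1, 36.3 and 40.0 against 42.6, 78.8 and 210 FPKM for Mdm2, although neither passed the threshold without the replicate block (adjusted p = 0.061 and 0.073, limma), as both did with it (0.014 and 0.015).

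DS-5272-treated cells had more mRNA of the cytokines, of the IL-1 antagonist and decoy receptor, and of ASC, caspase-1 and gasdermin D. Among the 8 members with a vehicle mean of at least 1 FPKM, 6 rose (Il1b, Il1rn, Il1r2, Pycard, Casp1 and Gsdmd), whereas 23.2% of all tested genes with such a vehicle mean were called higher. The remaining 2 of these 8, Nlrp3 and Casp4, did not pass the threshold. Il1a and Il18 also passed it, but both had a vehicle mean under 1 FPKM and entered the test only because of their DS-5272 values, so they were bound to differ. With them the count was 8 of 10 higher, where 24.2% of all tested genes were called higher, and 0 of 10 lower in limma, where 22.0% were called lower. All 10 log2 fold changes were positive, so none was lower at an unadjusted p under 0.05 either. The median log2 fold change was 1.5 over the 8 members and 0.04 over all tested genes.

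**Figure D1:**
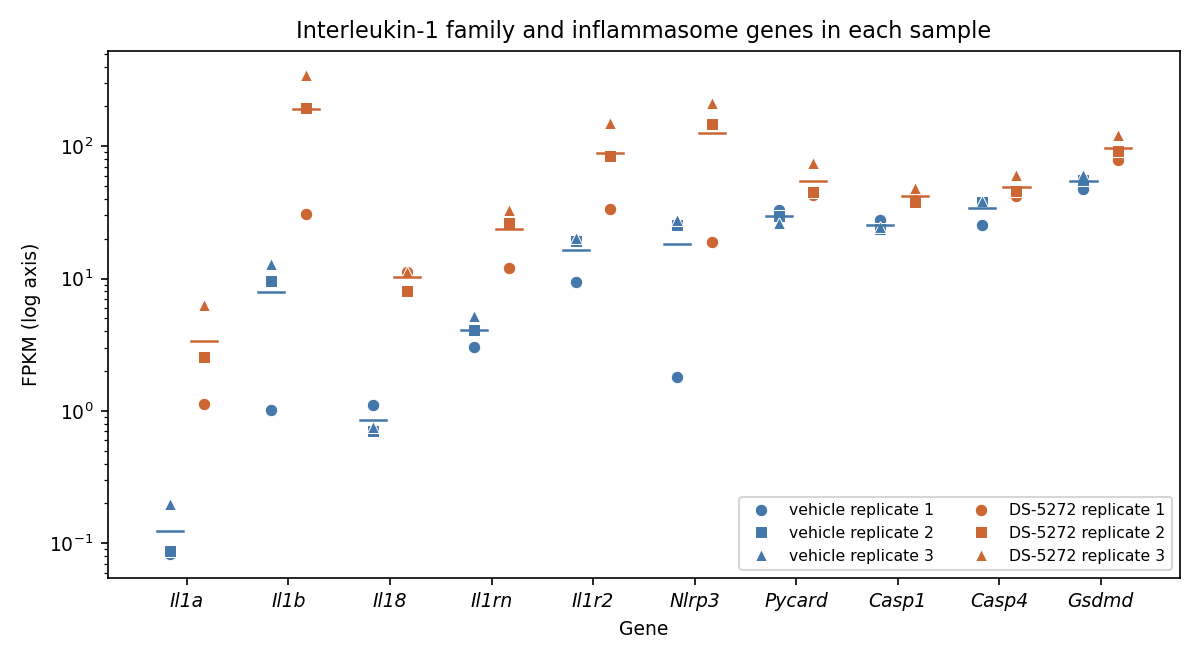
FPKM of each member (log axis) in the 3 vehicle samples (blue) and the 3 DS-5272 samples (orange), with marker shapes for replicate numbers and a line at each group mean. On this axis the group means lie farthest apart for Il1a (0.123 and 3.35 FPKM) and Il1b (7.88 and 191 FPKM), and Nlrp3 is the member whose groups overlap, since DS-5272 replicate 1 (19.0 FPKM) lies below vehicle replicates 2 and 3.

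For 7 of the 8 members with a vehicle mean of at least 1 FPKM, every DS-5272 value was above every vehicle value, a pattern seen in 30.9% of all tested genes with such a mean. With Il1a and Il18 it was 9 of 10, where the share of all tested genes was 32.1%. All 10 members were higher in DS-5272 in each of the 3 pairs of equally numbered samples. All 10 were highest in DS-5272 replicate 3, the sample with the largest sum of FPKM (661184, against 445316 to 579884 in the others). The share of all tested genes with either pattern was not counted, and the part of this larger sum was not tested. A block on the replicate number assumes a pairing that was inferred from these data. With this block 8 of the 8 were called higher, where it called 29.0% of the genes with such a mean higher. With Il1a and Il18 it was 10 of 10, and 30.3% of all tested genes. Without the block, 9 members had an unadjusted p under 0.05. Under rescaling to a common total (TPM) the median of all tested genes moved to −0.19, while the members kept positive log2 fold changes from 0.28 for Casp4 to 4.04 for Il1b.

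Among the ligands, Il1b showed the largest change on the log2(FPKM + 1) scale. Its FPKM values were 1.01, 9.63 and 13 in vehicle replicates 1 to 3 and 30.5, 194 and 347 in DS-5272 replicates 1 to 3. Replicate 1 was lowest in both groups, and the lowest DS-5272 value was still above the highest vehicle value. Mean FPKM went from 7.88 ± 6.18 to 191 ± 158 (SD, n = 3), a ratio of 24.2. The log2 fold change was 4.27 (standard error 1.05, adjusted p = 0.017, limma), rank 7 among the rises of all tested genes. With the replicate block the standard error was 0.15, because the differences within the 3 pairs were close to each other, at 3.97, 4.2 and 4.64. Leaving out DS-5272 replicate 2 gave 3.97, and the call was lost (adjusted p = 0.054, limma). In level, Il1b moved from percentile 34.3 to percentile 95.8 of the tested genes.

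Il1a, the other ligand of the same receptor, was barely measured in vehicle samples, at 0.0832, 0.0882 and 0.197 FPKM, which corresponds to about 7, 6 and 15 fragments at the estimated depth. In DS-5272 samples it reached 1.12, 2.57 and 6.35 FPKM, about 71, 142 and 291 fragments. The groups did not overlap, and the DS-5272 samples differed more from each other than the vehicle samples did. The mean went from 0.123 ± 0.0644 to 3.35 ± 2.7 FPKM (SD, n = 3), a ratio of 27.2 that rests on the few vehicle fragments, and the log2 fold change was 1.77 (standard error 0.42, adjusted p = 0.015, limma). This value depends on the pseudocount, since 0.1 in place of 1 FPKM gave 3.67. The call was lost without vehicle replicate 2 (adjusted p = 0.052, limma). In level, Il1a moved from percentile 0.0898 to percentile 16.3 of the tested genes. Even after treatment it was far below its neighbor Il1b in FPKM.

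Il18 encodes the other cytokine that caspase-1 processes. Its values were 1.10, 0.711 and 0.755 FPKM in vehicle samples and 11.2, 8.08 and 11.3 FPKM in DS-5272 samples. In contrast to Il1b, replicate 1 was not the lowest sample in either group, and the spread within groups was small, with means of 0.856 ± 0.215 and 10.2 ± 1.83 FPKM (SD, n = 3). The ratio of means was 11.9 and the log2 fold change 2.58 (standard error 0.17, adjusted p = 0.00061, limma), a test that Il18 entered only through its DS-5272 values. Over 14 alternatives to the processing, the log2 fold change ranged from 2.40 to 3.43 and the call was kept in each.

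The genes that restrain IL-1 rose together with the ligands. Il1rn, encoding the receptor antagonist, had 3.05, 4.08 and 5.18 FPKM in vehicle and 12.0, 26.1 and 33.0 FPKM in DS-5272 samples, with no overlap. The means were 4.10 ± 1.06 and 23.7 ± 10.7 FPKM (SD, n = 3), and the log2 fold change was 2.19 (standard error 0.36, adjusted p = 0.0052, limma). The call was kept under all 14 alternatives (1.90 to 2.59). Il1r2, encoding the decoy receptor that binds IL-1 without signaling, had 9.43, 19.2 and 20.3 FPKM in vehicle and 33.5, 84.0 and 150 FPKM in DS-5272 samples. These groups did not overlap either, and replicate 1 was again the lowest sample of each. Its log2 fold change was 2.21 (standard error 0.55, adjusted p = 0.017, limma), and the call was lost without vehicle replicate 1 (1.88, adjusted p = 0.056) and without DS-5272 replicate 2 (2.13, adjusted p = 0.052).

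To compare agonist and antagonist in the same sample, the ratio of Il1b to Il1rn was computed. Il1b stood at 0.331, 2.36 and 2.51 times the FPKM of Il1rn in vehicle samples and at 2.53, 7.44 and 10.5 times in DS-5272 samples. Vehicle replicate 1 was thus the only sample in which the antagonist mRNA exceeded that of the ligand. On the log2 scale with 1 FPKM added to each gene, the ratio was 0.41 ± 1.23 in vehicle and 2.49 ± 1.09 in DS-5272 samples (SD, n = 3). The difference of 2.08 had p = 0.1 in a two-sided exact permutation test, which is the smallest p that 3 against 3 samples allow. Without vehicle replicate 1 the difference was 1.37. The corresponding ratio of Il18 to its binding protein was not computed, because Il18bp is listed only jointly with another gene.

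In the inflammasome itself, the sensor Nlrp3 had the widest spread. Its values were 1.82, 25.4 and 27.9 FPKM in vehicle and 19.0, 146 and 212 FPKM in DS-5272 samples. Both samples with the number 1 were far below the others of their group, and DS-5272 replicate 1 was lower than vehicle replicates 2 and 3. The means were 18.4 ± 14.4 and 126 ± 98.2 FPKM (SD, n = 3). The log2 fold change of 2.73 (standard error 1.18) did not pass the threshold (adjusted p = 0.097, limma). Within pairs of equal number the differences were 2.83, 2.48 and 2.88, and with the replicate block the standard error was 0.12 and the gene was called (adjusted p = 0.00029, limma). It was also called without DS-5272 replicate 1 (3.78, adjusted p = 0.030, limma), while without vehicle replicate 1 the log2 fold change was 1.63.

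The adaptor and the protease changed less. Pycard, encoding ASC, had 33.2, 29.9 and 26.1 FPKM in vehicle and 42.5, 45.4 and 75.1 FPKM in DS-5272 samples, with no overlap and a single high sample, DS-5272 replicate 3. Its log2 fold change was 0.81 (standard error 0.22, adjusted p = 0.026, limma), and the call was lost without vehicle replicate 2 (adjusted p = 0.074) or 3 (adjusted p = 0.083). Casp1 had 27.8, 23.7 and 24.6 FPKM in vehicle and 39.0, 38.1 and 48.3 FPKM in DS-5272 samples. Casp1 means were 25.4 ± 2.19 and 41.8 ± 5.67 FPKM (SD, n = 3), with no overlap, and the change was 0.69 on the log2 scale (standard error 0.13, adjusted p = 0.0069, limma). The call of Casp1 was kept under all 14 alternatives, and its lowest log2 fold change was 0.43, after rescaling to TPM.

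Casp4, the neighbor of Casp1 and the non-canonical caspase, had 25.3, 38.0 and 38.3 FPKM in vehicle and 42.1, 46.0 and 60.7 FPKM in DS-5272 samples. The groups did not overlap, but vehicle replicate 1 was low compared with the other vehicle samples. The log2 fold change of 0.54 (standard error 0.21) did not pass the threshold (adjusted p = 0.067, limma). It passed with the replicate block (standard error 0.12, adjusted p = 0.013, limma), and it was 0.28 after rescaling to TPM. Gsdmd, which encodes the pore-forming substrate of both caspases, had 47.4, 55.3 and 60.9 FPKM in vehicle and 78.3, 91.9 and 122 FPKM in DS-5272 samples. The lowest DS-5272 value exceeded the highest vehicle value, the means were 54.5 ± 6.75 and 97.4 ± 22.3 FPKM (SD, n = 3), and the log2 fold change was 0.81 (standard error 0.18, adjusted p = 0.013, limma). The call of Gsdmd was kept under all 14 alternatives (0.55 to 0.95).

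**Figure D2:**
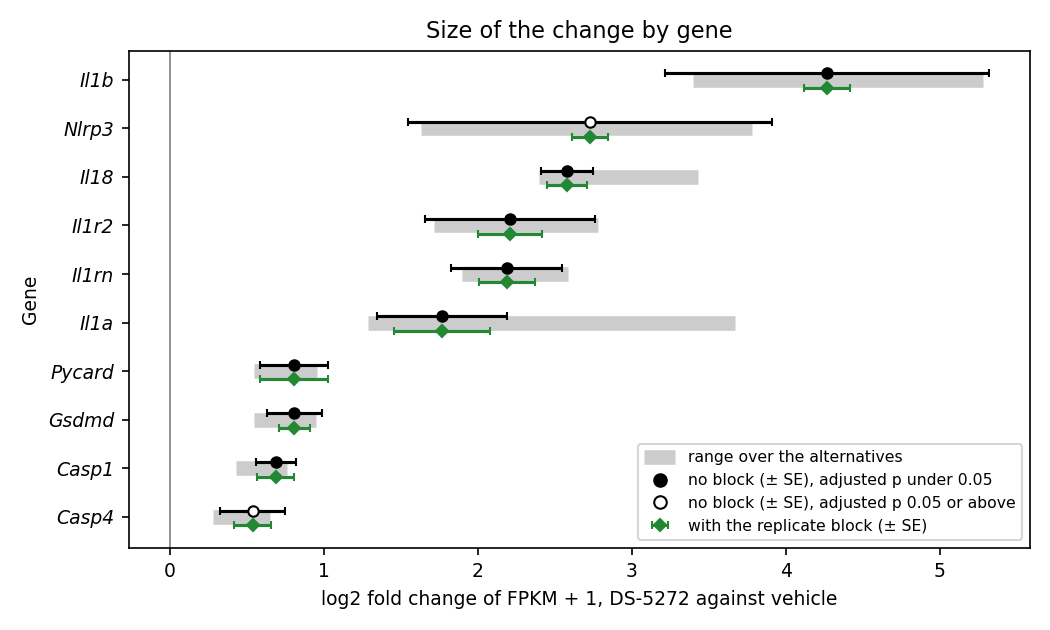
Log2 fold change of each member (DS-5272 against vehicle, on log2(FPKM + 1)) without the replicate block (circles, filled where the adjusted p was under 0.05) and with it (diamonds), each with its standard error, and grey bars for the range over the alternatives. Cytokines, antagonist, decoy receptor and Nlrp3 lie at 1.77 and above, while Pycard, Gsdmd, Casp1 and Casp4 lie at 0.81 and below.

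In vehicle samples the genes with the highest mean FPKM were those of the pore former, the caspases and the adaptor, in the order Gsdmd (54.5), Casp4 (33.9), Pycard (29.7) and Casp1 (25.4), followed by Nlrp3 (18.4), Il1r2 (16.3), Il1b (7.88), Il1rn (4.10), Il18 (0.856) and Il1a (0.123). Neighbors in this order had ranges that did not overlap only for Gsdmd and Casp4, for Il1rn and Il18, and for Il18 and Il1a. In DS-5272 samples Il1b (191) and Nlrp3 (126) had the highest means, ahead of Gsdmd (97.4), Il1r2 (89.2), Pycard (54.3), Casp4 (49.6), Casp1 (41.8), Il1rn (23.7), Il18 (10.2) and Il1a (3.35). Within the first 7 of these, the range of each gene overlapped that of the next, although the values of Gsdmd (78.3 to 122) were all above those of Pycard (42.5 to 75.1), Casp4 and Casp1. The neighbors Casp1 and Il1rn, Il1rn and Il18, and Il18 and Il1a did not overlap.

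Members also differed in how they varied among samples of the same treatment. On log2(FPKM + 1), replicate 1 lay below the mean of replicates 2 and 3 by a difference of −3.29 (vehicle) and −3.15 (DS-5272) for Nlrp3, and of −2.60 and −3.05 for Il1b. For Il1r2 the differences were −0.99 and −1.71. Casp1 (0.20 and −0.14) and Il18 (0.28 and 0.20) showed little or the opposite. In all, 7 of 10 members were lower in replicate 1 in both groups (70.0%), as were 40.3% of all tested genes.

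**Figure D3:**
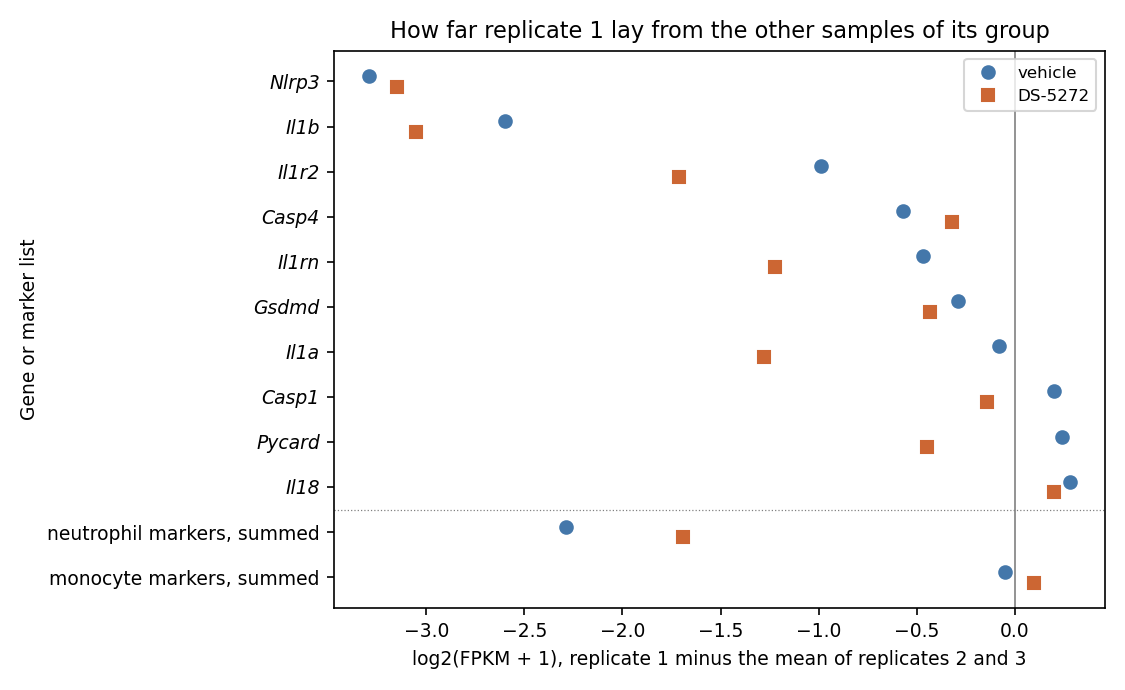
Difference on log2(FPKM + 1) between replicate 1 and the mean of replicates 2 and 3, for vehicle (circles) and DS-5272 (squares), for each member and, below the dotted line, for the summed FPKM of the neutrophil and monocyte markers. Nlrp3 (−3.29 and −3.15) and Il1b (−2.60 and −3.05) lie farthest to the left, and the neutrophil markers lie at −2.29 and −1.69, a sum carried by S100a8, S100a9 and Lcn2. The monocyte markers (−0.05 and 0.10, a sum carried by Ly6c2) and Casp1 (0.20 and −0.14) lie near 0.

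Markers of mature myeloid cells moved with these genes. The 12 neutrophil markers summed to 466, 1980 and 2630 FPKM in vehicle replicates 1 to 3 and to 5180, 12900 and 21600 FPKM in DS-5272 replicates 1 to 3. Most of this sum was S100a8, S100a9 and Lcn2 in every sample. Of these markers 10 were called higher, beside 24.2% of all tested genes, and none was at 0 in all samples. Camp and Ngp were not called (adjusted p = 0.35 and 0.18, limma), but they were with the replicate block (0.02 and 0.0024). In replicate 1 of both groups 11 of the 12 were lower, as were 40.3% of all tested genes. Ly6g, the marker most restricted to neutrophils, was at 0.16 to 0.264 FPKM in vehicle and 0.58 to 3.66 FPKM in DS-5272 samples, whereas S100a9 went from 34.9, 325 and 487 to 1110, 3890 and 6370 FPKM. The 9 monocyte markers summed to 1100 to 1150 FPKM in vehicle and 1540 to 1740 FPKM in DS-5272 samples. Of 8 tested, 7 were called higher, again beside 24.2% of all tested genes, among them Csf1r (28.1 ± 3.34 to 108 ± 3.33 FPKM, SD, n = 3). The called markers Fcgr1, Treml4 and Ly6g had vehicle means under 1 FPKM (0.623, 0.813 and 0.207). They entered the test only through their DS-5272 values, so they were bound to differ. Most of the monocyte sum was Ly6c2, which was not called (880 ± 33.6 and 693 ± 201 FPKM, SD, n = 3). Without it the sum was 239 to 258 FPKM in vehicle and 839 to 1200 FPKM in DS-5272 samples. Single monocyte markers were split, with Cd14, Nr4a1 and Treml4 lowest and Ccr2, Fcgr1 and Ms4a6c highest in replicate 1 of both groups. The part of these cells in the changes of Il1b, Nlrp3 and the other members was not tested. In a bulk sample, fewer cells of a type and less RNA per cell cannot be told apart.

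Bone marrow macrophage markers summed to 66.8, 87.3 and 119 FPKM in vehicle replicates 1 to 3 and to 479, 206 and 268 FPKM in DS-5272 replicates 1 to 3. Of 11 tested, 5 were called higher, beside 24.2% of all tested genes. Cd5l was called only with the replicate block (adjusted p = 0.039, against 0.12 without it, limma). Of this list, Marco was at 0 in all vehicle samples (0.0543 to 2.79 FPKM in DS-5272 samples) and no marker was at 0 in all 6 samples. The summed macrophage markers were highest in DS-5272 replicate 1, the DS-5272 sample in which Il1a, Il1b, Il1rn, Il1r2, Nlrp3, Pycard, Casp4 and Gsdmd were lowest. In vehicle samples the sum was lowest in replicate 1, as were all of these genes except Pycard. Most of the vehicle sum was Vcam1 (36.6, 64.1 and 82.8 FPKM), which was not called. Vcam1, Emr1 and Mertk were lowest in vehicle replicate 1. In contrast, C1qa, C1qb, C1qc, Cd5l, Siglec1, Mrc1, Axl and Cd163 were lowest in vehicle replicate 2. Markers of T cells (3.05 to 3.22 FPKM in vehicle, 4.0 to 6.63 in DS-5272) and NK cells (0.688 to 1.51 and 2.6 to 4.38) remained low in sum. Erythroid markers reached 101 FPKM in DS-5272 replicate 1 and 14.4 to 30.4 FPKM elsewhere. Endothelial and stromal markers summed to 29.2 to 60.6 FPKM in vehicle and 73.5 to 112 FPKM in DS-5272 samples. Most of that sum was Pecam1 (26.4 to 58.8 and 68.3 to 109 FPKM), and 7 of the 9 listed genes stayed under 1 FPKM in every sample. The part of erythroid, endothelial and stromal cells in the results was not tested. The leukemia genes Meis1 (66.1 to 80.5 and 69.2 to 110 FPKM) did not pass the threshold, Kit fell from 36.0 ± 7.91 to 8.9 ± 3.63 FPKM (SD, n = 3, adjusted p = 0.0046, limma), and Ptprc and Itgam, which are also general leukocyte and mature myeloid markers, rose by 1.18 and 2.1 on the log2 scale. Hoxa9 is listed only jointly with other genes, and Mecom was listed at 0 in all.

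Beyond the 10 members, 63 further genes of the IL-1 and inflammasome pathways were considered, of which 58 had an entry of their own and 44 were tested. Of these, 21 were called higher, 2 lower and 21 not called, where 24.2% of all tested genes were called higher and 22.0% lower. Their median log2 fold change was 0.46, against 0.04 over all tested genes. For 24 of the 44 genes every DS-5272 value exceeded every vehicle value, as in 32.1% of all tested genes. With the replicate block 23 were called higher and 1 lower, where 30.3% of all tested genes were called higher.

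**Figure D4:**
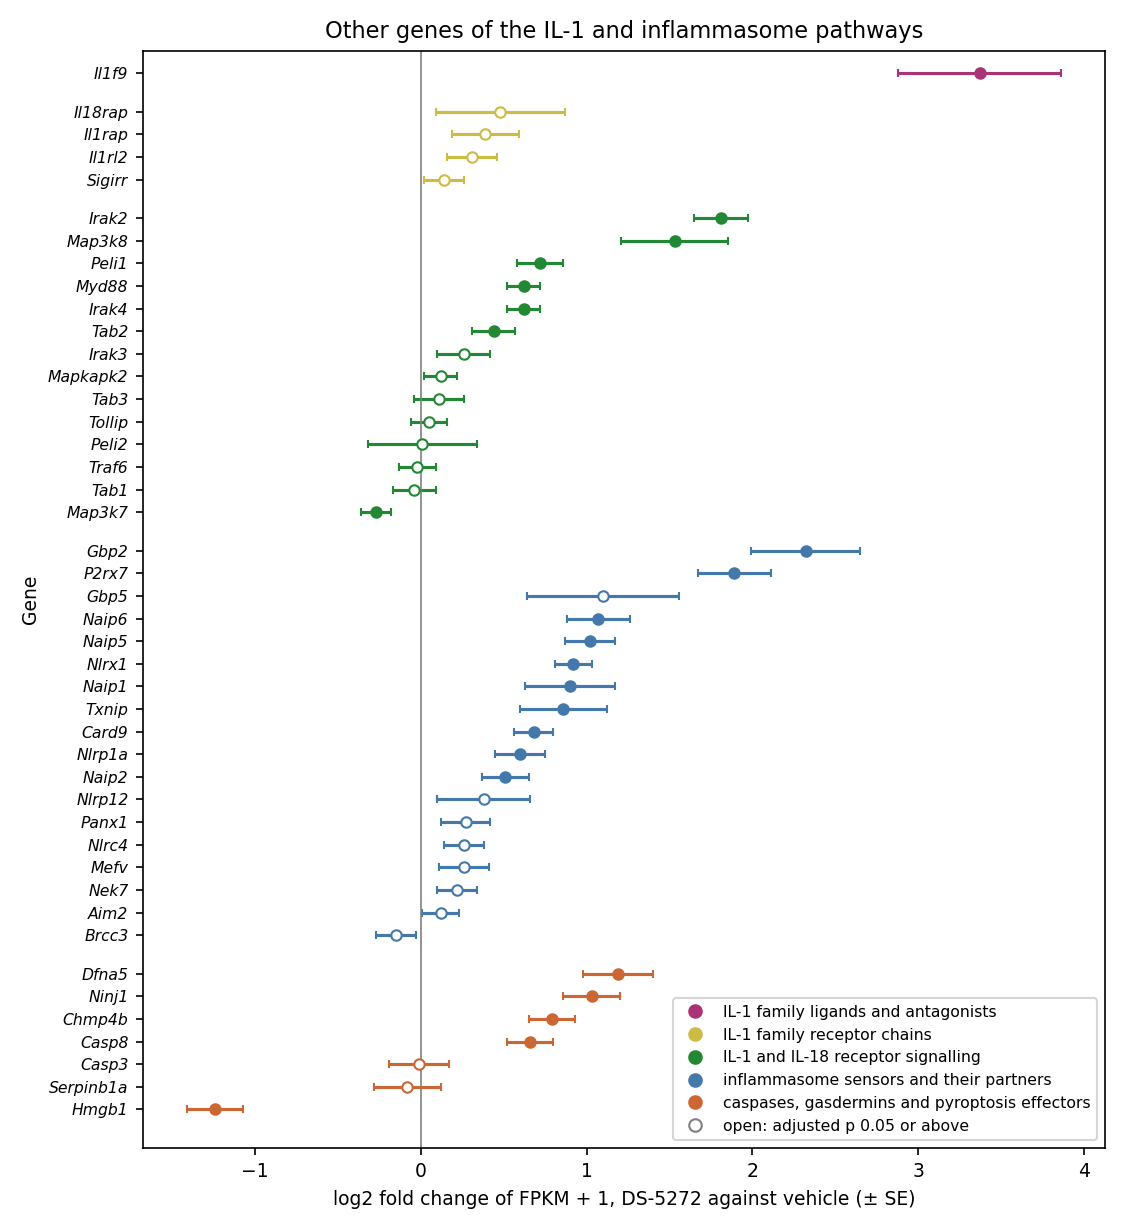
Log2 fold change (DS-5272 against vehicle, on log2(FPKM + 1)) with its standard error for the 44 tested genes of the 5 pathway lists, colored by list and filled where the adjusted p was under 0.05. Il1f9 (3.37), Gbp2 (2.32), P2rx7 (1.89) and Irak2 (1.81) lie farthest to the right, receptor chains lie between 0.14 and 0.48 without a call, and Hmgb1 (−1.24) is the largest fall.

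Of the other ligands, only Il1f9 passed the filter. Il1f9 encodes IL-36γ, an agonist of the IL-36 receptor, and its values were 3.68, 10.7 and 13.3 FPKM in vehicle and 57.2, 103 and 142 FPKM in DS-5272 samples. As for Il1b, replicate 1 was lowest in both groups and the groups did not overlap. Its log2 fold change was 3.37 (standard error 0.49, adjusted p = 0.0039, limma). Il33 stayed at 0.118 to 0.405 FPKM over all 6 samples and Il1f6 at 0 to 0.384 FPKM, while Il1f5, Il1f8 and Il1f10 were listed at 0 in all of them.

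Of the receptor chains, 0 of 4 tested were called by limma, where 24.2% of all tested genes were called higher and 22.0% lower. So few genes cannot be told apart from these shares. None of the 4 had an unadjusted p under 0.05. All 4 were higher in DS-5272 in each of the 3 pairs of equal number, a pairing that is assumed. The share of all tested genes with this pattern was not counted. Il1rap, the chain shared by receptors of IL-1, IL-33 and IL-36, had 8.70, 8.64 and 9.07 FPKM in vehicle and 16.0, 8.73 and 11.8 FPKM in DS-5272 samples (log2 fold change 0.39, standard error 0.20, adjusted p = 0.15, limma). It was called without DS-5272 replicate 2 (0.59, adjusted p = 0.028, limma). Il18rap, a chain of the IL-18 receptor, had 10.2, 21.7 and 24.3 against 16.2, 26.5 and 35.9 FPKM and overlapping groups (0.48, standard error 0.39, adjusted p = 0.33, limma), and was called with the replicate block (adjusted p = 0.014). The ligand-binding chains of the IL-18 and IL-1 receptors were low. Il18r1 did not exceed 0.0829 FPKM in any sample. Il1r1, the signaling receptor of Il1a and Il1b and named after its values were seen, had 0.285 to 0.496 FPKM in vehicle and 0.769 to 2.03 FPKM in DS-5272 samples, below the filter and far below the decoy receptor Il1r2 in every sample.

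Among 14 tested genes of IL-1 and IL-18 receptor signaling, 6 were called higher and 1 lower (24.2% and 22.0% of all tested genes). Irak2, a kinase-like member of the receptor complex, had 10.6, 11.0 and 10.6 FPKM in vehicle and 35.4, 35.6 and 51.4 FPKM in DS-5272 samples. Vehicle samples were close to each other, DS-5272 replicate 3 was the single high sample of its group, and replicate 1 did not stand apart. The log2 fold change of Irak2 was 1.81 (standard error 0.16, adjusted p = 0.001, limma). Map3k8, a kinase upstream of ERK in this pathway, went from 4.64 ± 1.66 to 15.4 ± 5.75 FPKM (SD, n = 3) without overlap (1.53, standard error 0.32, adjusted p = 0.011, limma). Myd88 (0.62), Irak4 (0.62), Peli1 (0.72) and Tab2 (0.44), named after their values were seen, make up the remaining rises on the log2 scale. Map3k7, encoding the kinase TAK1, fell by 0.27 on the log2 scale (13.1 ± 0.162 to 10.7 ± 0.443 FPKM, SD, n = 3, adjusted p = 0.044, limma), was also chosen after its values were seen, and lost its call with the replicate block (adjusted p = 0.06), without the variance trend (0.05) and without any one sample other than DS-5272 replicate 3 (0.079 to 0.15).

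Of 18 tested inflammasome sensors and partners, 10 were called higher and none lower, also at an unadjusted p under 0.05 (limma), where 24.2% of all tested genes were called higher and 22.0% lower. P2rx7, the ATP-gated channel whose opening is a classical trigger of NLRP3, had 4.59, 5.01 and 2.94 FPKM in vehicle and 16.6, 15.1 and 23.0 FPKM in DS-5272 samples (log2 fold change 1.89, standard error 0.22, adjusted p = 0.0021, limma). Gbp2, an interferon-induced GTPase that helps to expose bacterial lipopolysaccharide to caspase-4, had 5.67, 2.56 and 2.56 against 28.9, 14.2 and 22.0 FPKM (2.32, standard error 0.33, adjusted p = 0.0038, limma). Both genes had no overlap between groups, and Gbp2 was highest in replicate 1 of both, opposite to Nlrp3. Naip5 (1.02, adjusted p = 0.0041) and Naip6 (1.07, adjusted p = 0.0066, limma), sensors of bacterial flagellin, also rose, but they are near-identical paralogs among which fragments may be split, so the value of each is uncertain. Among sensors of other inflammasomes, named after their values were seen, Nlrp1a rose by 0.60 on the log2 scale (adjusted p = 0.017, limma), while Nlrc4, Aim2 and Mefv had log2 fold changes of 0.26, 0.12 and 0.26 without a call. The remaining rises, also named after their values were seen, were those of Naip1 (0.90), Naip2 (0.51), Nlrx1 (0.92), Txnip (0.86) and Card9 (0.68).

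Of 7 tested caspases, gasdermins and effectors, 4 were called higher and 1 lower, beside 24.2% and 22.0% of all tested genes. Dfna5, encoding gasdermin E, which is cleaved by caspase-3, had 3.08, 2.80 and 3.67 FPKM in vehicle and 6.53, 7.87 and 11.8 FPKM in DS-5272 samples (log2 fold change 1.19, standard error 0.21, adjusted p = 0.0063, limma). Ninj1, which mediates membrane rupture after pore formation, had 50.9, 49.8 and 46.5 against 78.4, 106 and 125 FPKM (1.03, standard error 0.17, adjusted p = 0.0055, limma). In both genes the groups were fully apart, as in Gsdmd. Hmgb1, a chromatin protein that is released from dying cells as an alarmin, had 283, 257 and 259 FPKM in vehicle and 104, 144 and 94.7 FPKM in DS-5272 samples and fell by 1.24 on the log2 scale (standard error 0.17, adjusted p = 0.0033, limma). Exons of Hmgb1 overlap Uspl1 and a long non-coding RNA. Exons of Irak2, Irak4, Myd88, Gbp2, P2rx7, Il1rap, Card9, Nlrx1 and Txnip also overlap another gene. The values of all these genes may include fragments of the overlapping genes.

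The genes whose log2(FPKM + 1) most resembled that of Il1b over the 6 samples were Cyfip2 (Pearson's r = 0.9996), Mthfs (0.9994), Nfil3 (0.9988), Csrnp1 (0.9987) and Stk17b (0.9982). For Casp1 they were Gna15 (0.9995), Vwa5a (0.9983), Acbd3 (0.9978), Vipar (0.9971) and Spop (0.9966). These 6 points fall into 2 treatment groups and each r was the highest of all tested genes, so the values describe likeness only. Nfil3, for example, had 18.1, 37.2 and 42.6 FPKM in vehicle and 55.1, 114 and 158 FPKM in DS-5272 samples, with the low replicate 1 of Il1b, whereas Gna15 had 17.3, 14.2 and 15.3 against 25.5, 25.1 and 32.3 FPKM, without it.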

How the data were processed

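RNA of MLL-AF9 leukemia cells of 6 samples was measured by paired-end, strand-specific RNA-Seq. The authors trimmed reads with cutadapt 1.8.1 (FastQC for quality), aligned them to GRCm38 with TopHat2 2.1.1 and derived gene FPKM with Cufflinks 2.2.1, per the submitters' processing notes. The deposited FPKM values are scaled to transcript length and to the fragments of each library, so they are not counts and no count model was used. The table has 26632 lines, and lines sharing 1 of 435 repeated symbols were summed, while 433 lines that join several genes were kept under their joined name.

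Samples were grouped by treatment as labelled. Genes averaging 1 FPKM or more were compared with limma (lmFit, eBayes with trend, two-sided) on log2(FPKM + 1), all 6 samples, with Benjamini-Hochberg adjustment over 11130 genes and a threshold of 0.05. The fit ran in R 4.3.3 (limma 3.58.1) and was tested on simulated data. Python 3.11.15 served for the rest (pandas 2.3.3, numpy 2.4.6, matplotlib 3.10.9). The ratio of Il1b to Il1rn was compared by an exact permutation test. Fragment numbers were approximated from FPKM, the longest annotated transcript and depth, which was read from 347 genes under 0.15 FPKM, so no counting intervals are given.

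Replicate numbers run from 1 to 3 in both groups. Deviations from the group means correlated by 0.66, 0.21 and 0.43 between equally numbered samples and by −0.58 to 0.34 between others. All 3 were above 0.1, the limit used here to fit a block. Vehicle replicate 2 with DS-5272 replicate 3 (0.34) and vehicle replicate 3 with DS-5272 replicate 2 (0.18) were above it too. These values set replicate 1 apart but cannot settle how replicates 2 and 3 pair, and the labels state no pairing. Pairing by number is therefore an assumption drawn from these same data. A second fit had the replicate number as a block. Its values stand beside each call of a named gene that it altered.

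The 10 members, the pathway lists and the marker lists were chosen with earlier results of these data known. Named pathway genes are those called whose log2 fold change reached 1 in size and the 2 with the largest change in each list, beside markers that move with a member, Cdkn1a and Mdm2, and the 5 genes most like Il1b and Casp1. Exceptions are marked in the text. The processing was varied by a pseudocount of 0.1 FPKM, by dropping the filter or raising it to 5 FPKM, and by upper-quartile and TPM rescaling, the replicate block, no variance trend, the highest line per symbol, and leaving out each sample in turn. The genes of Il36a, Il36b, Il36g, Il36rn and Gsdme are listed as Il1f6, Il1f8, Il1f9, Il1f5 and Dfna5 and were used under those names. Irgb10 had no entry under this name, and Il18bp, Irak1, Nlrp1b and Nfkbiz were listed only jointly with other genes, so their own values were not used here.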

Additional observations from a re-analysis of the deposited data

How the results depend on the processing

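No member changed direction under any alternative. The number of members called higher was 8, 7 with a mean of at least 5 FPKM (which leaves Il1a out), 10 with the replicate block, and 6 to 9 when 1 sample was left out, with 6 without vehicle replicate 2 and without DS-5272 replicate 2. No member was called lower in any fit. Over all tested genes, 1713 were called higher and 3555 lower after rescaling to TPM, and leaving out 1 sample gave from 1623 to 2934 higher and from 1389 to 2432 lower, both lowest without vehicle replicate 2, and 1492 lower without vehicle replicate 3. After rescaling to an upper quartile, 2233 were higher and 3179 lower, compared with 2697 and 2451 without rescaling. Of the pathway genes, 16 to 21 were called higher and 1 to 2 lower when 1 sample was left out, and 1 lower with the replicate block or without the variance trend, the lost gene being Map3k7. After rescaling to TPM, 16 pathway genes were called higher and 3 lower. The difference in the ratio of Il1b to Il1rn was 1.37 to 2.69 when 1 sample was left out, and the paired sign-flip test gave p = 0.25 (exact permutation), the smallest it allows with 3 pairs. The replicate block changed no call of a named gene other than Nlrp3, Casp4, Il18rap, Map3k7, Cdkn1a, Mdm2, Camp, Ngp and Cd5l. The cause of these shifts was not tested. The alternatives planned for the ratio of Il18 to Il18bp were not run. The DS-5272 samples were shallower than the vehicle samples, which limits low values such as those of Il1a most.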
